A study of Mus musculus with 6 samples.

Results

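Hepcidin and cardiac iron handling in mouse atria were followed in 10 genes, chosen by gene name from the 43432 gene identifiers of the deposited expression table: Hamp, Slc40a1, Tfrc, Trf, Fth1, Ftl1, Slc11a2, Cp, Aco1 and Ireb2. All 10 were present and all 10 were among the 15275 genes tested, whose normalized counts averaged 10 or more over the samples. The study asked how obesity changes gene expression in the atria. RNA of right and left atria was sequenced from wild-type C57/Bl6J mice, 3 samples of mice on a high-fat diet (HFD, the obese group) and 3 of mice on a control chow (the lean group). Both groups started their diet at 6 weeks of age and stayed on it for 10 weeks, and the sex of the mice was not given. No source used here says whether each sample came from 1 mouse, so p-values measure the spread between these samples. The labels contradict themselves on the diet: for each of the 6 samples the title, which the table's columns repeat, names one diet and the treatment entry names the other. Groups follow the titles, and every direction given rests on them.

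Hepcidin, the product of Hamp, is a peptide hormone best known from the liver, and heart muscle makes it as well. It binds ferroportin, the product of Slc40a1 and the only known exporter of iron from mammalian cells, and causes its loss from the membrane, so that iron stays in the cell. Iron reaches the heart on transferrin through the transferrin receptor and is stored in ferritin shells built of heavy and light chains. When a cell is short of iron, the iron regulatory proteins bind hairpins in messenger RNAs, the iron-responsive elements (IREs), which holds back translation when the hairpin lies before the coding sequence and stabilizes the message when it lies after it.

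The sequences of these elements are shown because the sequencing measured only the level of the messages they control. IREs were searched for as a C, then 5 bases, the loop letters CAGTGN, and 5 bases that pair with the first 5 (G-U pairs allowed). Of the members, 4 held a match in an untranslated region of their principal transcript: Fth1, Ftl1, Slc40a1 and Tfrc. Slc11a2 is also a known IRE carrier, in some of its transcripts, and the transcript searched held no match to these letters. Among the transcripts searched, 0.095% of those with a 5′ untranslated region and 0.516% of those with a 3′ untranslated region held a match there. The matches of Fth1 (chr19:9982733-9982759, plus strand), Ftl1 (chr7:45459780-45459806, minus strand) and Slc40a1 (chr1:45925466-45925492, minus strand) lay in exon 1 in the 5′ untranslated region (GRCm38). The 4 matches of Tfrc lay in exon 19 in the 3′ untranslated region, at chr16:32631220-32631246, chr16:32631599-32631625, chr16:32631664-32631690 and chr16:32631711-32631737 (plus strand). Capitals mark the loop letters.
Fth1: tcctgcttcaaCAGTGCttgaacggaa
Ftl1: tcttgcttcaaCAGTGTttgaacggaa
Slc40a1: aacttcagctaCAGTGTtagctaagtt
Tfrc site 1: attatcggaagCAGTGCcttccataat
Tfrc site 2: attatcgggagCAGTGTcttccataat
Tfrc site 3: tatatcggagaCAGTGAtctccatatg
Tfrc site 4: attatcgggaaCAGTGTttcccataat

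The region before Hamp is shown beside that of its copy Hamp2, because hepcidin is the member whose transcription is known to be driven by 2 signals whose genes were also measured here. Bone morphogenetic proteins act through SMAD factors on GGCGCC, and interleukins act through STAT3 on TTCNNNGAA, of which TTCTTGGAA is an instance. Both motifs were searched on both strands of the 250 bases before the RefSeq start (GRCm38.p6), and their matches in Hamp did not overlap. Hamp (chr7:30944030-30944279, minus strand) held GGCGCC at -109 to -104 from its start and TTCTTGGAA at -97 to -89. Hamp2 (chr7:30924182-30924431, minus strand) held only TTCTTGGAA, at -94 to -86. The substitution in the place of the GGCGCC of Hamp was G4A, counted from 1 at the first base of the motif. The windows were identical at 227 of 247 aligned bases (91.9%). GGCGCC occurred in 9.59% and TTCNNNGAA in 7.02% of all 32851 windows of this length. Capitals mark the motifs.
Hamp: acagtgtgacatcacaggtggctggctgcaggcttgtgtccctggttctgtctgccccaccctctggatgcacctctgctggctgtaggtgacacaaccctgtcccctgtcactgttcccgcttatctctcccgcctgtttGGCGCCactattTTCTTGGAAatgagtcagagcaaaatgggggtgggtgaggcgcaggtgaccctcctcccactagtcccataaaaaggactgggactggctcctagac
Hamp2: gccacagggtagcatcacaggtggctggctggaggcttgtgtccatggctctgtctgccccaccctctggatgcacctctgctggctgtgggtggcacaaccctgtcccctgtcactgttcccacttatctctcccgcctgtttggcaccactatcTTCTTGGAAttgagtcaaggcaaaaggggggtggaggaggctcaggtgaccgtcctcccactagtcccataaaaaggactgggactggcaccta

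Of the other members with a RefSeq window, Tfrc held GGCGCC and Aco1 held TGANNNNGC, the core of the antioxidant response element, which occurred in 35.2% of all windows. The E-box CACGTG, found in 6.02% of all windows, was in no member's window. The regions before Slc40a1, Trf and Slc11a2 were not analysed here.

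The data are reads per gene that the authors scaled by a size factor for each sample, here called normalized counts. Totals ranged from 15874251 to 28971508 reads, and 3 reads, taken as the smallest signal, corresponded to 2.05 to 3.41 normalized counts, which covers counting error only. A pair of samples stood apart. In HFD sample 3, 3 of 6 atrial myocyte markers (Myl7, Myl4 and Nppa) and several iron genes lay at or beyond control levels, away from the other HFD samples, while the markers Sln and Dkk3 stayed below every control sample. Control sample 2 was the most deeply sequenced and had 30.7% of its reads on mitochondrial genes, against 19.5% to 24.4% in the others. In bulk tissue, fewer cells of a type and less RNA per cell cannot be told apart.

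The atria expressed hepcidin at a high level. Per kilobase of messenger RNA, the mean over all samples was 1555 normalized counts for Hamp, above 95.8% of the genes tested. Only the ferritin chains stood higher among the members, Fth1 with 18267 and Ftl1 with 5325 normalized counts per kilobase. Trf followed with 1101 and Cp with 825, and then Slc40a1 with 254, Aco1 with 172, Slc11a2 with 158, Tfrc with 150.1 and Ireb2 with 101, beside a median of 107.5 over all genes tested. The samples of neighbours in this order overlapped, except between Fth1 and Ftl1, between Ftl1 and Hamp and between Cp and Slc40a1.

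The members varied between samples to very different degrees. The highest sample exceeded the lowest 3.95-fold for Tfrc, 3.08-fold for Hamp and 2.77-fold for Slc40a1, beside a median of 1.57-fold over all genes tested. The smallest ranges were those of Aco1 (1.25-fold) and Fth1 (1.35-fold).

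**Figure D1:**
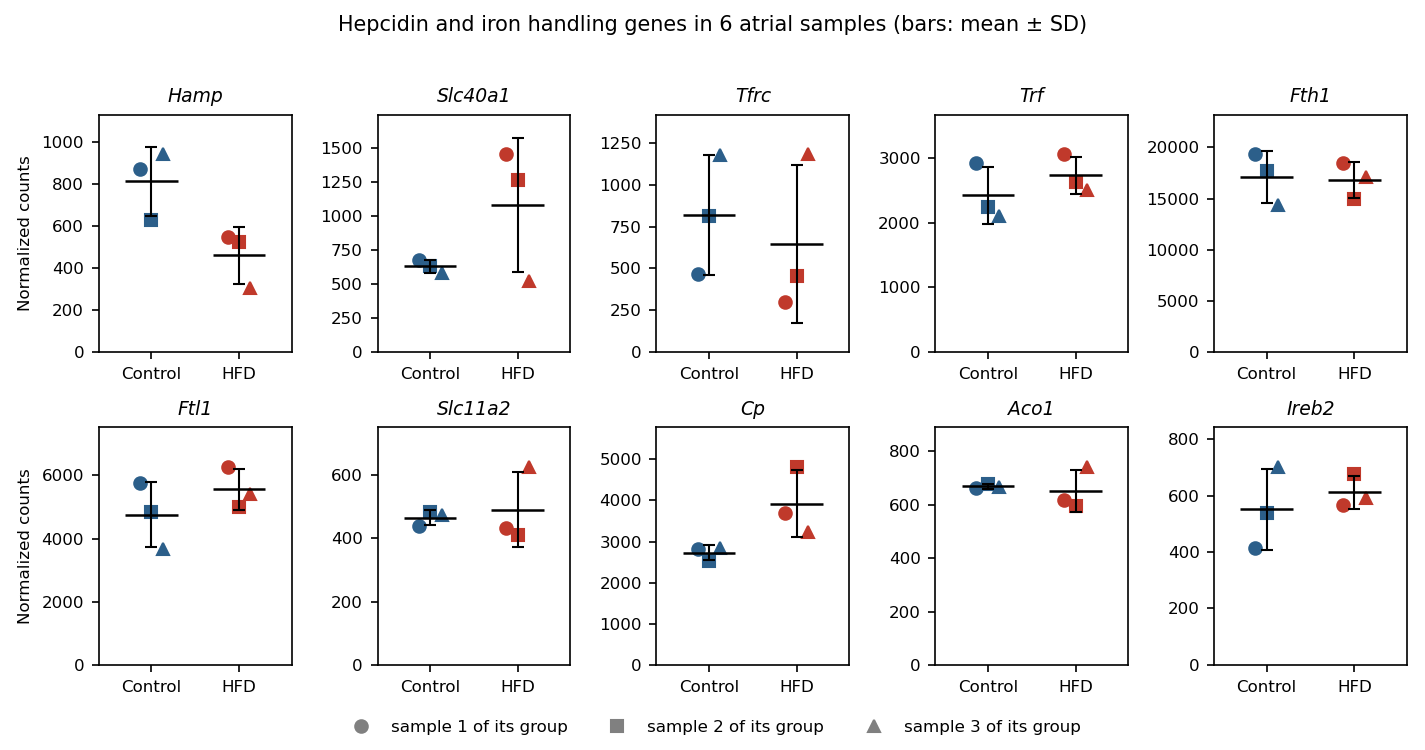
Normalized counts of the 10 genes in each atrial sample, in control and HFD groups, with a separate linear axis from 0 for each gene. Bars give the mean ± SD of 3 samples. The groups were apart for Hamp (lower in HFD) and Cp (higher in HFD). HFD sample 3 (triangle) stood apart from the other HFD samples for Slc40a1, Tfrc, Slc11a2 and Aco1.

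Hepcidin message was lower in each HFD sample than in any control sample. Hamp (ENSMUSG00000050440, chr7:30942371-30944017, minus strand) had 550.5, 524 and 307 normalized counts in HFD samples 1, 2 and 3 and 872, 629.6 and 943 in control samples 1, 2 and 3. The group means were 460.5 ± 134 and 815 ± 164 (SD, n = 3). The lowest of all was HFD sample 3, and the control closest to the HFD group was control sample 2. The log2 fold change of HFD over control was -0.85 (SE 0.23, 95% interval -1.36 to -0.34), which is 0.555 of the control level. In the limma test over all genes the unadjusted p was 0.00391 and the Benjamini-Hochberg adjusted p was 0.135, so the difference did not pass 0.05. It passed in DESeq2 on the recovered reads (adjusted p = 0.0119) and did not in edgeR (adjusted p = 0.153). The direction held in every alternative run, and the fold change moved from -1.02 without control sample 2 to -0.58 without HFD sample 3.

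Hamp has a near-identical neighbour, Hamp2, and reads that fit both could have been lost or misplaced. The transcripts of Hamp and Hamp2 were identical at 94.6% of aligned bases, yet only 60 of the 361 stretches of 50 bases in Hamp, the read length of the study, also occurred in Hamp2. Hamp2 had 0, 15 and 11 reads in the HFD samples and 13, 13 and 27 in the control samples. Hepcidin message in these atria was thus almost wholly assigned to Hamp, and the Hamp2 groups overlapped.

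The genes most like Hamp over the 6 samples were found by the smallest Euclidean distance between log2 values centred on each gene's mean. They were Efnb3 (0.207), Gm1976 (0.247), Syt15 (0.254), 2410018L13Rik (0.358) and Stk32a (0.395), where the median gene had a distance of 1.43. Efnb3, which codes for a membrane-bound ephrin, had 467.1, 424.2 and 269 normalized counts in HFD samples 1, 2 and 3 and 706.5, 604 and 835 in control samples 1, 2 and 3. None of these 5 passed the limma test, with adjusted p from 0.0819 for Efnb3 to 0.613 for 2410018L13Rik. Their choice by likeness to Hamp set their direction in advance, so the direction is no separate result. Gm1976, Syt15 and 2410018L13Rik had at most 41.4 normalized counts in any sample.

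On the export side, the values of ceruloplasmin lay higher in every HFD sample, and those of ferroportin in HFD samples 1 and 2 alone. Ceruloplasmin, the product of Cp, is the copper ferroxidase that oxidizes iron as it leaves cells so that transferrin can take it up. Cp (ENSMUSG00000003617, chr3:19957054-20009145, plus strand) had 3704, 4818 and 3243 normalized counts in HFD samples 1, 2 and 3 and 2828, 2518 and 2839 in control samples 1, 2 and 3 (3921 ± 810 against 2728 ± 182, SD, n = 3). The groups did not overlap, and HFD sample 3 was nearest to the controls, whereas for Hamp it was the farthest from them. The log2 fold change was 0.51 (SE 0.15, 95% interval 0.18 to 0.83), a 1.42-fold higher level, with a limma p of 0.006 and an adjusted p of 0.165. The adjusted p was 0.0293 in DESeq2, 0.171 in edgeR, and 0.0417 in limma without HFD sample 3, where the log2 fold change was 0.63. Hps3 overlaps Cp on the opposite strand with a mean of 278 normalized counts, and the use of strand in counting is not given in the sources used here.

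Slc40a1 (ENSMUSG00000025993, chr1:45908068-45926523, minus strand) had 1456, 1266 and 526 normalized counts in HFD samples 1, 2 and 3 and 677, 633 and 581.5 in control samples 1, 2 and 3. HFD samples 1 and 2 were therefore above all control samples, and HFD sample 3 was below all of them. Over all samples the log2 fold change was 0.65 (SE 0.31, 95% interval -0.03 to 1.33), with an adjusted p of 0.431 in limma, 0.329 in edgeR and 0.484 in DESeq2. Without HFD sample 3 it was 1.11 and passed the limma test (adjusted p = 0.00343). This call rests on leaving out a sample after its values were known.

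The genes of iron uptake gave no difference that passed. The transferrin receptor gene Tfrc (ENSMUSG00000022797, chr16:32608920-32632794, plus strand) had 299, 458 and 1184 normalized counts in HFD samples 1, 2 and 3 and 467, 814 and 1180 in control samples 1, 2 and 3. Both groups were spread widely, and HFD sample 3 and control sample 3 had nearly the same value. The log2 fold change was -0.49 (SE 0.45, 95% interval -1.49 to 0.51, limma adjusted p = 0.723), and -1.05 without HFD sample 3 (adjusted p = 0.151). HFD samples 1 and 2 thus combined high Slc40a1 with the lowest and second-lowest values of Tfrc, and HFD sample 3 combined the lowest Slc40a1 with the highest Tfrc.

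Transferrin itself, from Trf (chr9:103204001-103230444, minus strand), had 3058, 2622 and 2504 normalized counts in HFD samples 1, 2 and 3 and 2927, 2243 and 2099 in control samples 1, 2 and 3, with overlapping groups and a log2 fold change of 0.18 (95% interval -0.14 to 0.50). The divalent metal transporter that moves iron out of endosomes, from Slc11a2 (chr15:100387898-100425072, minus strand), had 432, 411 and 625 normalized counts in HFD samples 1, 2 and 3 and 438, 483 and 472 in control samples 1, 2 and 3. Its log2 fold change was 0.05 (95% interval -0.32 to 0.42), and HFD sample 3 was the highest of all. Adjusted p in limma was 0.672 for Trf and 0.941 for Slc11a2.

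The ferritin chains were the most abundant members and showed no difference that passed. The heavy chain, which carries the ferroxidase site of ferritin, is coded by Fth1 (ENSMUSG00000024661, chr19:9982703-9985092, plus strand). Fth1 had 18427, 14949 and 17078 normalized counts in HFD samples 1, 2 and 3 and 19337, 17668 and 14359 in control samples 1, 2 and 3, with a log2 fold change of -0.02 (95% interval -0.34 to 0.30, limma adjusted p = 0.977). The interval leaves room for a change of either sign. The light chain gene Ftl1 (ENSMUSG00000050708, chr7:45457944-45459884, minus strand) had 6269, 4994 and 5395 normalized counts in HFD samples 1, 2 and 3 and 5748, 4845 and 3677 in control samples 1, 2 and 3. Its groups overlapped, and its log2 fold change was 0.24 (95% interval -0.12 to 0.60, limma adjusted p = 0.615).

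Set against each other within a sample, the ferritin messages gave a ratio that did not overlap between groups. Each message alone overlapped. The ratio of Fth1 to Ftl1, each per kilobase, was 3.06, 3.12 and 3.30 in HFD samples 1, 2 and 3 and 3.51, 3.80 and 4.07 in control samples 1, 2 and 3. Its mean was 3.16 ± 0.12 in the HFD group and 3.79 ± 0.28 in the control group (SD, n = 3), with every HFD sample below every control sample. The exact two-sided permutation test gave p = 0.1, the smallest that 3 samples against 3 allow. Groups that do not overlap always give this p, and 18.0% of single genes tested had such groups. The ratio was chosen after the values had been seen, and the share among ratios was not computed. The processed pseudogene Ftl1-ps1, which can share reads with Ftl1, had 2397, 1769 and 1957 normalized counts in HFD samples 1, 2 and 3 and 1759, 1728 and 1291 in control samples 1, 2 and 3. Its log2 fold change was 0.36 (limma adjusted p = 0.384), so the level of Ftl1 is uncertain to the extent that reads were split. The other ferritin copies, Ftl2-ps and Ftl1-ps2, had at most 6 reads in any sample. A microRNA gene, Gm22133, overlaps Ftl1 on the same strand and had a mean of 547 normalized counts.

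The genes of the iron regulatory proteins, which bind IREs, gave no difference that passed, and Aco1 was the steadiest member. Aco1, which codes for the protein that serves as cytosolic aconitase when it holds an iron-sulfur cluster, had 616.8, 595.6 and 742 normalized counts in HFD samples 1, 2 and 3 and 662, 678 and 667 in control samples 1, 2 and 3. Ireb2, which codes for the regulator that is degraded when iron is plentiful, had 567, 678 and 592 normalized counts in HFD samples 1, 2 and 3 and 413, 537 and 702 in control samples 1, 2 and 3. Both groups overlapped for each gene. The log2 fold changes were -0.04 (95% interval -0.32 to 0.23) for Aco1 and 0.18 (95% interval -0.23 to 0.59) for Ireb2, with limma adjusted p of 0.93 and 0.75.

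Counted together, 0 of the 10 members passed the limma test at an adjusted p under 0.05, where 0.746% of all genes tested passed (0.484% higher and 0.262% lower in HFD). At an unadjusted p under 0.05 there were 2 of 10, Hamp and Cp, beside 12.2% of all genes. The same 2 were the members whose groups did not overlap, as was true of 18.0% of all genes, 9.17% with lower values in HFD like Hamp and 8.86% with higher values like Cp. By edgeR 0 members passed (0.570% of all genes), and by DESeq2 2 passed, again Hamp and Cp (3.34% of all genes). Without HFD sample 3, Slc40a1 and Cp passed in limma, where 2.08% of all genes did, and without control sample 2 no member passed, where 0.0917% of all genes did. The median log2 fold change of the members was 0.12, beside 0.0049 over all genes tested. With 10 members, each of these shares turns on 1 or 2 genes.

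**Figure D2:**
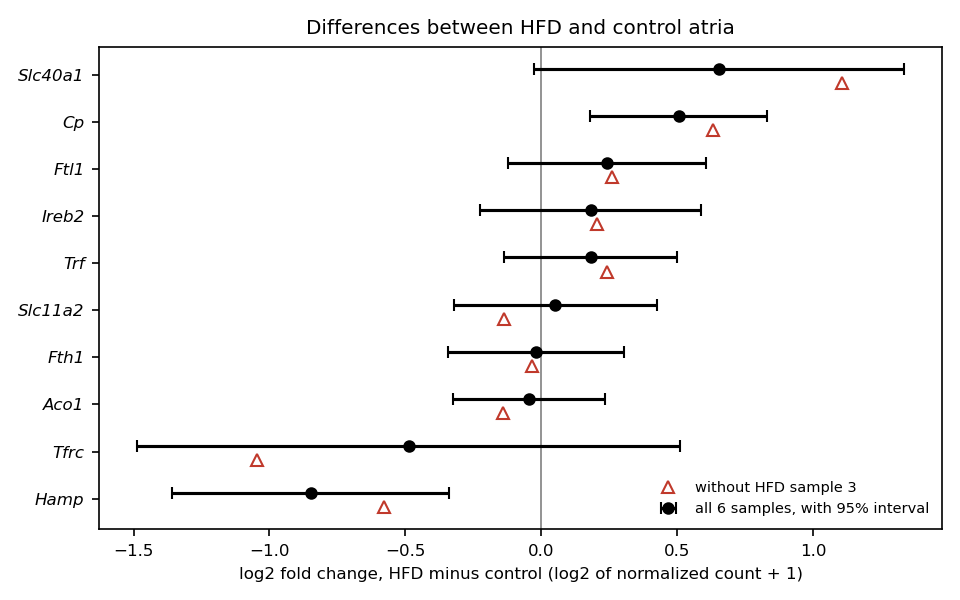
Log2 fold changes of HFD over control for the 10 genes, ordered by size. Black circles give all 6 samples with 95% intervals from limma, and open triangles give the estimate without HFD sample 3. The intervals of Hamp (-1.36 to -0.34) and Cp (0.18 to 0.83) exclude 0, before adjustment for the number of genes tested, and leaving out HFD sample 3 moved Slc40a1 from 0.65 to 1.11 and Tfrc from -0.49 to -1.05.

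Of the 4 members with an IRE match, those with the match before the coding sequence had log2 fold changes of -0.02 (Fth1), 0.24 (Ftl1) and 0.65 (Slc40a1), and Tfrc, with its matches after it, had -0.49. Slc11a2, which is on the list of known carriers without a match here, had 0.05. None of these members passed in limma, edgeR or DESeq2 with all 6 samples. Beyond the members, 4 other messages on the list of known IRE carriers were tested, and 0 passed. Among them Cdc14a, a phosphatase gene, had 119.5, 108 and 69.3 normalized counts in HFD samples 1, 2 and 3 and 132, 138 and 192 in control samples 1, 2 and 3, with a log2 fold change of -0.65 and a limma adjusted p of 0.331. Epas1, which codes for hypoxia-inducible factor 2α, had a log2 fold change of 0.16. Alas2, the heme synthesis gene of red cell precursors, had at most 38.1 normalized counts in any sample and overlapping groups (log2 fold change -0.16).

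The genes known to set hepcidin transcription were measured in the same samples, in a list for each signal. Of 16 tested genes of the bone morphogenetic protein and SMAD signal, 0 passed in limma, 2 had an unadjusted p under 0.05, a share near the 12.2% of all genes, and the median log2 fold change was 0.02. These 2 were Atoh8, a transcription factor gene known to respond to this signal, and Smad4, the common SMAD partner. Atoh8 had 395, 467 and 424 normalized counts in HFD samples 1, 2 and 3 and 318, 271 and 289 in control samples 1, 2 and 3. Its log2 fold change was 0.55 with an adjusted p of 0.11 in limma and 0.0449 in DESeq2, the opposite sign to that of Hamp. In limma the log2 fold change was 0.36 for Smad4 (adjusted p = 0.363), -0.52 for the ligand gene Bmp2 (adjusted p = 0.462) and 0.22 for the receptor gene Bmpr1a (adjusted p = 0.577). Bmp6, the ligand that sets hepcidin by iron in the liver, had 343, 440.6 and 605 normalized counts in HFD samples 1, 2 and 3 and 594.5, 466 and 553 in control samples 1, 2 and 3, with overlapping groups. The coreceptor hemojuvelin (Hfe2) was abundant, at 4837 ± 252 normalized counts in the HFD and 5377 ± 318 in the control group (SD, n = 3). Transcripts of Tfr2 and Tmprss6, which adjust the signal in the liver, and of Erfe were too low to be tested, with at most 15.7 normalized counts in any sample.

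Of 11 tested genes of the inflammatory signal, 1 passed in limma, 7 had an unadjusted p under 0.05, all 7 with higher values in the HFD group, and the median log2 fold change was 0.58. Over all genes tested, 0.746% passed and 12.2% had an unadjusted p under 0.05. The list's log2 fold changes ran from -0.21 to 3.02, and the gene at 3.02 did not pass in limma. The gene that passed was Inhbb, whose product forms activin B, a ligand known to raise hepcidin in inflammation. Inhbb had 264, 256 and 178 normalized counts in HFD samples 1, 2 and 3 and 78.4, 48.6 and 62.3 in control samples 1, 2 and 3. The groups were far apart, and HFD sample 3 was the lowest of its group. Its log2 fold change was 1.87 (SE 0.24, limma adjusted p = 0.00937), and the adjusted p was 0.0126 in edgeR and 3.17e-09 in DESeq2. Leaving out control sample 2, control sample 3 or HFD sample 2 brought the adjusted p to 0.0515, 0.061 and 0.0524 in limma.

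The C/EBP transcription factor genes Cebpb and Cebpd had higher values in every HFD sample than in any control sample. Cebpb had 965, 875 and 804 normalized counts in HFD samples 1, 2 and 3 and 481.5, 514 and 245 in control samples 1, 2 and 3, with a log2 fold change of 1.16 and an adjusted p of 0.0657 in limma and 0.0003 in DESeq2. Cebpd had 645, 440.6 and 649 normalized counts in HFD samples 1, 2 and 3 and 341.5, 308 and 244 in control samples 1, 2 and 3, with a log2 fold change of 0.95 and an adjusted p of 0.055 in limma and 0.000367 in DESeq2. For Socs3, the feedback inhibitor of STAT3 signaling, the log2 fold change was 0.94, with an adjusted p of 0.11 in limma and 0.0069 in DESeq2. Il6, the interleukin best known to raise hepcidin, was at 0 to 9.18 normalized counts and was not tested. Il22 was at or below 3 reads in every sample. Inhbb, Cebpb, Cebpd and Socs3 had positive log2 fold changes and Hamp a negative one, and a link between them was not tested.

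**Figure D3:**
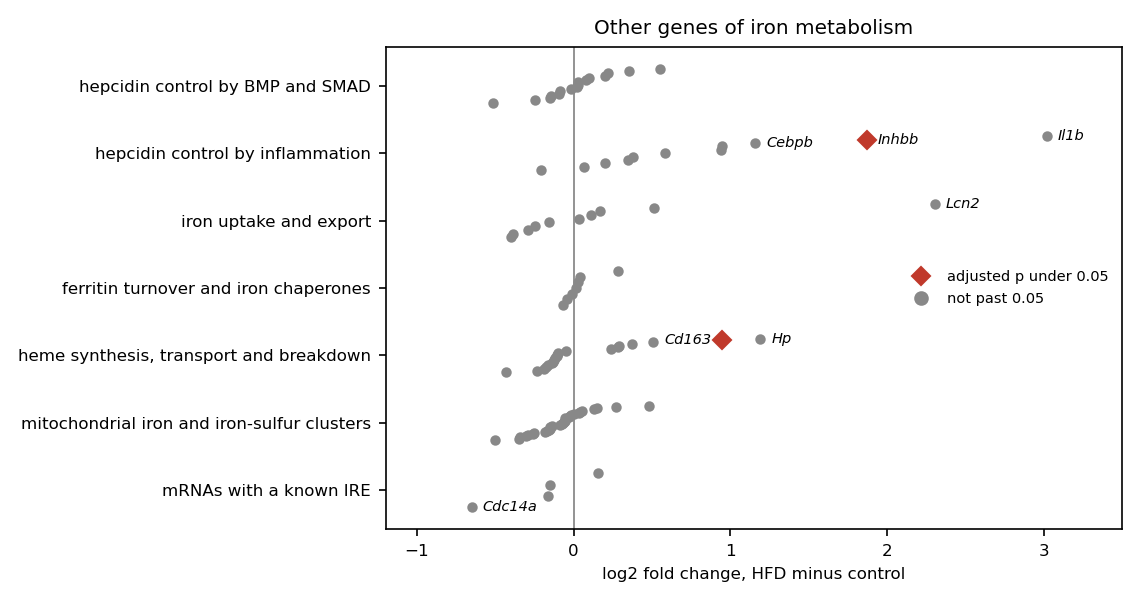
Log2 fold changes of HFD over control for the other genes of iron metabolism that were tested, a point per gene and a row per list, without the 10 members. A gene on several lists is drawn on each. Red diamonds mark the genes with a limma adjusted p under 0.05, Inhbb at 1.87 and Cd163 at 0.95.

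Of 10 tested genes of iron uptake and export beyond the members, 0 passed in limma and 3 had an unadjusted p under 0.05 (12.2% of all genes). Lcn2 codes for lipocalin 2, which binds the iron carriers of bacteria. It had 288, 146 and 62.5 normalized counts in HFD samples 1, 2 and 3 and 29.1, 18.5 and 37.2 in control samples 1, 2 and 3. The groups did not overlap, but the HFD samples differed several-fold among themselves, with HFD sample 3 the lowest. The log2 fold change was 2.30 (SE 0.49), with an adjusted p of 0.0657 in limma and 5.98e-06 in DESeq2, and it was 2.87 without HFD sample 3 (limma adjusted p = 0.00597). Slc22a17, which codes for a lipocalin 2 receptor, had lower values in the HFD group (log2 fold change -0.40, limma adjusted p = 0.308). Slc39a14, a zinc transporter gene whose product also carries iron not bound to transferrin, had 751, 1035 and 1086 normalized counts in HFD samples 1, 2 and 3 and 603.5, 711 and 681 in control samples 1, 2 and 3 (log2 fold change 0.51, limma adjusted p = 0.186). The ferric reductase gene Cybrd1 overlapped between groups (log2 fold change -0.39).

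Of 7 tested genes of ferritin turnover and iron chaperones, 0 passed in limma. Ncoa4, the receptor that delivers ferritin to lysosomes, had 1492, 1377 and 1438 normalized counts in HFD samples 1, 2 and 3 and 1088, 1105 and 1353 in control samples 1, 2 and 3. Its groups were just apart, with a log2 fold change of 0.29 and a limma adjusted p of 0.373. The chaperone genes Pcbp2, Bola2 and Pcbp1 had log2 fold changes of -0.04, -0.07 and 0.04.

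Of 20 tested genes of heme synthesis, transport and breakdown, 1 passed in limma, beside 0.746% of all genes. The same gene alone had an unadjusted p under 0.05, beside 12.2% of all genes, and the median log2 fold change was -0.10. The gene was Cd163, the macrophage receptor for hemoglobin bound to haptoglobin. Cd163 had 1041, 1273 and 803 normalized counts in HFD samples 1, 2 and 3 and 544, 542 and 502 in control samples 1, 2 and 3. Its log2 fold change was 0.95 (SE 0.16), with an adjusted p of 0.031 in limma, 0.0378 in edgeR and 1.39e-05 in DESeq2. In limma, leaving out any sample except HFD sample 3 brought the adjusted p above 0.05, to between 0.0862 and 0.138, and leaving out the mitochondrial genes brought it to 0.054. Haptoglobin (Hp) had 1556, 490.5 and 831 normalized counts in HFD samples 1, 2 and 3 and 968.5, 293 and 187 in control samples 1, 2 and 3, with overlapping groups. For Hmox1, the enzyme that frees iron from heme, the log2 fold change was 0.50 (limma adjusted p = 0.437), and for Lrp1, the receptor for heme bound to hemopexin, it was 0.29 (limma adjusted p = 0.452).

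Cd163 also marks macrophages. Of 8 macrophage markers, 1 passed in limma, edgeR and DESeq2 (Cd163 itself) and 5, Cd163 among them, had an unadjusted p under 0.05 (12.2% of all genes), and their summed level was 12150 to 13909 normalized counts in the HFD and 8581 to 11177 in the control group. The other markers had smaller log2 fold changes than Cd163, from -0.01 for Csf1r to 0.42 for C1qb. Of the 8 markers, 7 had a positive log2 fold change. The part of macrophage number in the values of Cd163, Slc40a1 and the inflammatory genes was not tested.

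Of 31 tested genes of mitochondrial iron and iron-sulfur clusters, 0 passed in limma, and 1 with higher and 4 with lower values in the HFD group had an unadjusted p under 0.05, beside 12.2% of all genes in either direction. Iba57, an assembly factor gene, had the higher values (log2 fold change 0.48, limma adjusted p = 0.291). Among those with lower values were the cochaperone gene Hscb (log2 fold change -0.50), the assembly factor gene Isca2 (-0.35) and the transporter gene Abcb8 (-0.29), with limma adjusted p of 0.327, 0.336 and 0.368. The list's median log2 fold change was -0.07. Mitochondrial ferritin (Ftmt) was at or below 3 reads in every sample. Over all of these lists, 2 of 97 tested genes passed in limma, both higher in the HFD group, where 0.484% of all genes were higher and passed. By DESeq2 there were 7, Inhbb, Cd163, Cebpb, Cebpd, Socs3, Lcn2 and Atoh8, where 3.34% of all genes passed.

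**Figure D4:**
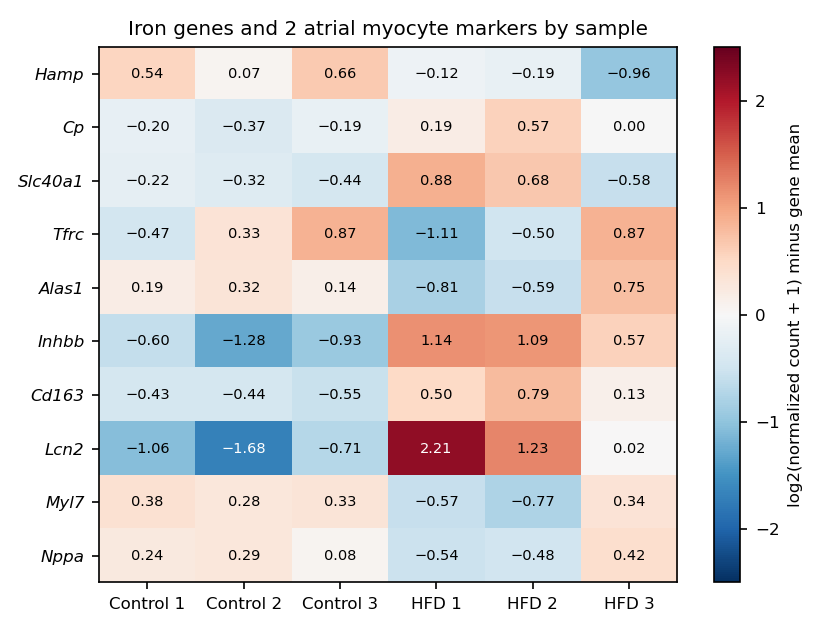
Log2 of normalized count + 1 minus the gene's mean over the 6 samples, for 8 iron genes and a pair of atrial myocyte markers, by sample. Red is above and blue below the gene's mean, and the genes were chosen after their values had been seen. HFD sample 3 shared the side of HFD samples 1 and 2 for Hamp (-0.96) and Inhbb (0.57) and was on the other side for Slc40a1 (-0.58), Tfrc (0.87), Alas1 (0.75) and Myl7 (0.34).

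The members differed in how HFD sample 3 behaved. For Hamp this sample had the lowest value of all, on the same side of the controls as the other HFD samples. For Slc40a1 and Tfrc it lay with or beyond the controls, away from HFD samples 1 and 2. The same held for Slc11a2 and Aco1. There HFD samples 1 and 2 lay below every control sample and HFD sample 3 above every control sample, with 625 and 742 normalized counts. Alas1, the first enzyme of heme synthesis and named here after its values were seen, had 1099, 1284 and 3235 normalized counts in HFD samples 1, 2 and 3 and 2206, 2400 and 2120 in control samples 1, 2 and 3. Its log2 fold change was -0.43 with all samples (limma adjusted p = 0.641) and -0.91 without HFD sample 3 (adjusted p = 0.00521).

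The markers of atrial myocytes, which are the cells that define the tissue, were abundant in all samples and did not behave alike in HFD sample 3. Myl7, the atrial myosin light chain gene, had 31186, 27168 and 58765 normalized counts in HFD samples 1, 2 and 3 and between 56346 and 60190 in the control samples. Dkk3 had 16770.2, 16442 and 14156 normalized counts in HFD samples 1, 2 and 3 and between 19281 and 21130 in the control samples, so HFD sample 3 was the lowest of all, as for Hamp. Sln had 19799 normalized counts in HFD sample 3, against 25151 or more in the control samples. Over the 6 markers the sum was 302216 to 531225 normalized counts in the HFD and 461889 to 504268 in the control group. Of the 6, 0 passed in limma, beside 0.746% of all genes tested. An unadjusted p under 0.05 was reached by 3, all lower in the HFD group, beside 12.2% of all genes. Without HFD sample 3, where Slc40a1, Cp and Alas1 passed in limma, Myl7 (adjusted p = 0.00636) and Myl4 (adjusted p = 0.0371) passed too, with lower values in the HFD group. In that fit 2.08% of all genes passed. The part of myocyte content in the values of Slc40a1, Tfrc and Alas1 was not tested.

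Hepatocyte markers were near absent, and the sums of erythroid markers overlapped between groups. Of the hepatocyte markers, Alb, Serpina1a and Fgb were at or below 3 reads in every sample. The sum of all 6 was at most 39.2 normalized counts, beside 307 or more for Hamp. It did not overlap between groups, with 20.4 to 39.2 in the HFD and 7.53 to 19.0 in the control group. Only Ttr was tested, with a log2 fold change of 1.76 (limma adjusted p = 0.362). The erythroid markers summed to 1383 to 2245 normalized counts in the HFD and 1515 to 2237 in the control group, with 0 of 5 past the limma test and Slc4a1 at or below 3 reads in every sample. Of the ventricular myocyte markers, Myl2, a myosin gene, had 8176 normalized counts in control sample 2 against 2290 to 3470 in the other samples. Myl3 and Irx4 were also highest in control sample 2. Myh7 (3677 against 3697 in control sample 3) and Hey2 (48.6 against 76.3 in HFD sample 1) were not. Among the controls Hamp was lowest in control sample 2, and the part of ventricular tissue in this was not tested. Without control sample 2 the log2 fold change of Hamp was -1.02 (limma adjusted p = 0.182).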

How the data were processed

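Reads were single-end, 50 bases. The authors aligned them to GRCm38 with STAR, assigned them with Salmon and used DESeq2 (FastQC is also named in the processing notes). The deposited signal is the read count of each gene divided by 1 size factor per sample. The authors also deposited log2 fold changes, p-values and scores of their own DESeq2 comparison, which were not used. Dividing by the value of 1 read gave whole reads for 100% of values (within 0.001).

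Members were matched by Ensembl identifier, named by GENCODE M21 (GRCm38), since deposited names are in capitals. Of 43432 identifiers, 42462 (97.8%) matched. A row without a gene was dropped. limma 3.58.1 (R 4.3.3; variance trend, no covariate) was run on log2(normalized count + 1), with Benjamini-Hochberg adjustment over 15275 genes. This scale understates the change of low genes. edgeR 4.0.16 (quasi-likelihood) and DESeq2 1.42.0 on recovered counts were alternatives. The limma code was tested on simulated data. Single values had a two-sided exact permutation test. Lengths are those of the principal coding transcript (best APPRIS tag, then ends nearest the deposited gene), a definition set after seeing the data. Sequences came from GRCm38 with GENCODE M21 and from RefSeq. The IRE search was added after seeing the data.

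Members, lists and markers were chosen with earlier results of these data known. Named are all members, copies of Hamp and ferritin, the 5 genes nearest Hamp and, per list, genes past the threshold and up to 4 with the smallest p. Bmp6, Hfe2, Tfr2, Tmprss6, Erfe, Il6, Il22, Ftmt, Alas1 and the markers were named besides. One gene that this rule names is not reported here.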

Additional observations from a re-analysis of the deposited data

How the results depend on the processing

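The limma test called 114 genes, with 0 members and 2 of the wider iron genes. The count of genes was 470 by DESeq2, 0 without a variance trend (where 0 wider iron genes passed), 69 with an absolute log2 fold change above 1 as well, and 14 to 318 without 1 sample, lowest without control sample 2 and highest without HFD sample 3. Members called numbered 2 by DESeq2 and 0 to 2 without 1 sample, the 2 being without HFD sample 3. Wider iron genes called numbered 7 by DESeq2, 4 without a filter, 1 with mitochondrial genes left out, and 0 to 4 without 1 sample, again 4 without HFD sample 3. The members whose groups did not overlap were 2, and 2 to 6 without 1 sample, with 4 without control sample 1 and 6 without HFD sample 3, where 27.1% and 32.1% of all genes did not overlap. With the replicate number as a block, 157 genes, 0 members and 5 wider iron genes passed. The numbers did not pair the samples, since the deviations of same-numbered samples correlated at 0.12, -0.03 and -0.0039. Over 15 alternatives for each member, 144 of 150 fold changes kept their sign and 4 passed the threshold. The 6 that turned belong to Fth1 (-0.14 to 0.073 without 1 sample), Slc11a2 (-0.14 to 0.16), Aco1 (-0.14 to 0.016) and Ireb2 (-0.0086 to 0.37). Outside the members the sign turned for Bola2 (-0.22 to 0.041), Alas2 (-0.76 to 0.63) and Pcbp1 (-0.13 to 0.16, and -0.011 after quantile normalization). The cause of these shifts was not tested. At 3 samples a group, no exact test can pass 0.05, and genes under 3 reads were below detection.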

Other observations

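The adipocyte, endothelial, fibroblast, epicardial, Schwann cell and ventricular myocyte markers had no gene past the limma test with all 6 samples. Each list held 5 to 7 genes. By DESeq2, where 3.34% of all genes passed, Fabp4 (adjusted p = 0.00198) and Pecam1 (adjusted p = 0.000285) passed with higher values in the HFD group. In limma without HFD sample 3, 2.08% of all genes passed. There Fabp4 (adjusted p = 0.0244), Lpl (0.0478) and Pecam1 (0.0134) passed with higher and Myh7 (0.0296) with lower values. The adipocyte sum was 41077 to 76690 normalized counts in the HFD and 46254 to 50193 in the control group, with the lowest value in HFD sample 3. Endothelial markers summed to 15372 to 16980 normalized counts in the HFD and 12934 to 13755 in the control group, fibroblast markers to 33117 to 34962 and 33585 to 39333, epicardial markers to 1270 to 1982 and 1262 to 1973, Schwann cell markers to 880.3 to 1123 and 970.5 to 1163, and ventricular myocyte markers to 6921 to 9918 and 7958 to 17448. Their part in the values of the iron genes was not tested.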
